A study of Mus musculus with 2 samples.

Results

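The DNA replication and G1/S genes examined here are 59 genes listed by symbol for their roles, with earlier results of these data known. They comprise the G1 cyclins, their kinases and the pocket proteins, the E2F transcription factors, and the genes of origin licensing, origin firing, the replication fork, deoxynucleotide supply and chromatin assembly behind the fork. All 59 were found among the 21878 genes of both tables. Messenger RNA was measured by sequencing in primary chondrocytes, the cartilage-forming cells, of C57BL/6 mice. One culture had been given a lentiviral short hairpin RNA against Gpx4 (shGpx4, genotype recorded as GPX4 knockdown), and the other a lentiviral control hairpin (shNC, recorded as control). Both cultures therefore share the lentiviral treatment and the serum-containing medium. The age of the mice, how many were pooled and how many hairpins were used are not stated in the labels. The series set out to examine how GPX4, a selenoprotein that reduces lipid hydroperoxides, acts in chondrocytes, and each group has 1 library. No difference could therefore be tested, and every value below describes these 2 libraries.

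As background, cells decide in G1 whether to enter another division. D-type cyclins with CDK4 or CDK6, and then cyclin E with CDK2, phosphorylate the RB family of pocket proteins, which releases E2F factors from repression. E2F then drives the genes that license origins, fire them, copy the DNA and supply its building blocks. In the growth plate, chondrocytes divide in columns before they leave the cycle and become hypertrophic, and chondrocytes placed in culture divide again.

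Levels are in FPKM, the reads of a gene scaled to its length and to the size of its library. Ratios compare shGpx4 with shNC on a log2 scale after 1 FPKM was added to each level, so a positive ratio means higher in shGpx4, and weakly expressed genes appear closer to 0 than they are. Genes with a mean of at least 1 FPKM over both libraries are called measured. Intervals are exact Clopper-Pearson 95% intervals of the log2 ratio without the added 1, computed from the smallest whole reads that give both FPKM values. The true reads are these or a multiple of them, so an interval can be too wide but not too narrow for counting error, the one source of error it covers. Where a difference is called within counting error, its interval holds 0, and a narrower interval from the true reads might not. It holds nothing of the spread between cultures, and PCR copies of a molecule are counted as separate reads. The library totals were 21313211 reads for shGpx4 and 19729142 reads for shNC. Gpx4 itself was at 96.2 FPKM in shGpx4 and at 161 FPKM in shNC (ratio -0.73), the direction its label calls for.

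Promoters of the members were compared first, because E2F factors act through short DNA words near the start of these genes. RefSeq start sites in GRCm38.p6 gave windows from 250 bases before to 50 bases after the start for 48 of the 59 members. The members without a listed window were Ccnd1, Ccnd2, Ccne2, Rb1, Gmnn, Mcm4, Gins1, Gins2, Rfc2, Pole and Prim2. Both strands of the first listed window of each gene were searched for 3 words. The E2F word was TTTNNCGC with each N being C or G, the CCAAT box was CCAAT, and the word of the cell cycle genes homology region (CHR), known from genes of late cell cycle, was TTTGAA. Matches of the same or of different words may overlap.

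The 5 windows that follow are those of the 2 members with the highest ratios (Ccne1 and Rrm2), of the highest member with a CHR word (Asf1b), and of the highest and the lowest measured member with an E2F word (Mcm5 and Rfc3). They are printed in the direction of the gene, and capitals mark every E2F word, CCAAT box and CHR word found on either strand. On GRCm38.p6 they lie at chr7:38107441-38107740 on the minus strand (Ccne1), chr12:24708004-24708303 on the plus strand (Rrm2), chr8:83955444-83955743 on the plus strand (Asf1b), chr8:75109259-75109558 on the plus strand (Mcm5) and chr5:151651159-151651458 on the minus strand (Rfc3).
Ccne1: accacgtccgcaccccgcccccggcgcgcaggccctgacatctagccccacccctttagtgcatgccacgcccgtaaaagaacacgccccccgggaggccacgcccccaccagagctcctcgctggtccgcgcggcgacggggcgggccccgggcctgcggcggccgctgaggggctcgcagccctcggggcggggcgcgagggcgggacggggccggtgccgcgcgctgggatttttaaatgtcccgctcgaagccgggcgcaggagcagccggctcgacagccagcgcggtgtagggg
Rrm2: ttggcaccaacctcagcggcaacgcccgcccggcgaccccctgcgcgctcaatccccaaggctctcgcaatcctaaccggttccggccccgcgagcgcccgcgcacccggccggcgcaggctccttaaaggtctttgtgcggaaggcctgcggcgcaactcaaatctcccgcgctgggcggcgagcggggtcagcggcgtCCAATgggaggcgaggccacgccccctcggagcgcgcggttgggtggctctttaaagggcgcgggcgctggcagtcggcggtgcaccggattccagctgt
Asf1b: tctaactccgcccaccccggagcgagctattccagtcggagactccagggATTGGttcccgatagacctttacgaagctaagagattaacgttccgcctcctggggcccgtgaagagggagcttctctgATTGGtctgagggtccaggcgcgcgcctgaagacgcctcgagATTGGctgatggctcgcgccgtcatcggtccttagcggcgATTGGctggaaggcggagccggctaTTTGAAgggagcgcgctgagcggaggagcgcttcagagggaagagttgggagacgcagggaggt
Mcm5: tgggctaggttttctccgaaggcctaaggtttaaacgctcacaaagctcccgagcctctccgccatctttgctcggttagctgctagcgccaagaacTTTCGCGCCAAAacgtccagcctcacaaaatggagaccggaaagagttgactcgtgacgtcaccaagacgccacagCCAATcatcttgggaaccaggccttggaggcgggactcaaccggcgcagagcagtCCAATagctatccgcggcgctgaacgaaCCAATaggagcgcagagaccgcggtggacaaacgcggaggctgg
Rfc3: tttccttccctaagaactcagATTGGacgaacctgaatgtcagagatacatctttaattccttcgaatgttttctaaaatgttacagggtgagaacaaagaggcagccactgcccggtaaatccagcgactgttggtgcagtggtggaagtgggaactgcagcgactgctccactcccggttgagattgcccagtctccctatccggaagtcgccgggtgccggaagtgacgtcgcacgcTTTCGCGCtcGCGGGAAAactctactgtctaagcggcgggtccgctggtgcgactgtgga

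The Mcm5 window holds 2 overlapping E2F words and 3 CCAAT boxes, and the Rfc3 window holds 2 E2F words and 1 CCAAT box. The Asf1b window holds 4 CCAAT boxes and 1 CHR word. The Rrm2 window holds 1 CCAAT box, and none of the words was found in the Ccne1 window, which says only that these letters are not in it. Mcm5 and Rfc3 were picked for having E2F words, so their windows do not show how these words and the ratios go together. In Ccne1 and Rrm2, the highest members by ratio, no E2F word was found in the window.

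Over the whole group, 15 of 48 members (31.2%) had an E2F word in the first listed window, against 382 of 8888 measured genes with a window (4.3%) and 2.32% of all 27025 genes in the promoter table. Origin licensing genes had the most, with 7 of 9. A CCAAT box was found for 29 of 48 members (60.4%) and 39.2% of measured genes, and for 37.9% of all genes in the table. A CHR word was found for 9 of 48 members (18.8%), 11.4% of measured genes and 18.1% of all genes. In a list of 32 mitosis genes, 28 had a window. Of those, 22 (78.6%) had a CHR word, 23 (82.1%) a CCAAT box and 2 (7.14%) an E2F word. In a list of 53 other replication genes, 43 had a window. Of those, 12 (27.9%) had an E2F word, 22 (51.2%) a CCAAT box and 8 (18.6%) a CHR word. Both the members and the other replication genes were therefore rich in E2F words, and the mitosis genes in CHR words.

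**Figure D1:**
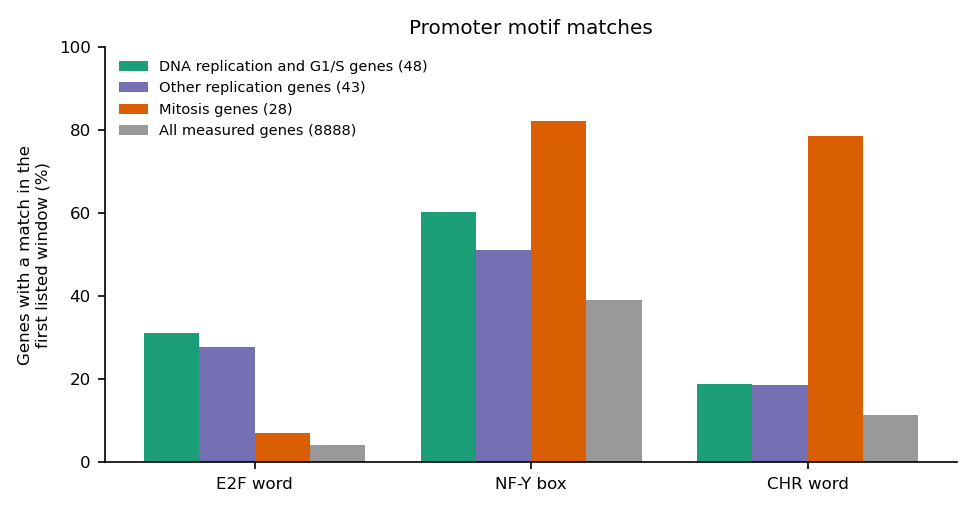
Percentage of genes whose first listed promoter window holds each word, for the DNA replication and G1/S genes, 53 other replication genes, mitosis genes and all measured genes, with the number of genes that have a window in brackets. E2F words were found in 31.2% of the members, 27.9% of the other replication genes and 4.3% of measured genes, and the NF-Y box is the CCAAT box.

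The members were, on balance, modestly higher in shGpx4. Of the 59, 51 were measured, and 39 of these had a ratio above 0 and 12 below. Over all 10997 measured genes, 41.3% had a ratio above 0, the share to set beside the counts by role and by list below. The median ratio of the members was 0.20, with quartiles of 0.00 and 0.33, beside -0.04 over all measured genes. Over the 28 members with a mean of 5 FPKM or more it was 0.10. With 1 FPKM added, the differences were small. On this scale 5 of 51 members (9.8%) were at least 1.5-fold higher, where 2.99% of all measured genes were. At least 1.5-fold lower were 0, where 1.96% of all were. None reached a difference of 2-fold on this scale in either direction, which 1.02% of all measured genes did upward and 0.527% downward. The counting interval lay above 0 for 24 members (47.1%) and below 0 for 2 (3.92%), beside 18.1% and 27.3% of all measured genes. The members were chosen with earlier results of these data known, so these shares only describe the list. In bulk RNA, a larger share of cells in S phase and more RNA per cycling cell cannot be told apart.

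The 5 members past 1.5-fold on this scale were Ccne1, Rrm2, Asf1b, Mcm5 and Uhrf1. The member just outside was Tk1, at a ratio of 0.58. Without the added 1, Tk1 was at 180% of its level in shNC. On that footing Ccne1 was at 266%, Asf1b at 220%, Rrm2 at 206%, Mcm5 at 203% and Uhrf1 at 177%. Each of the 5 had a mean level of 8.04 FPKM or less. Of 23 members with a mean between 1 and 5 FPKM, 4 were at least 1.5-fold higher, where 5.45% of all genes in that range were. In that range 21 members had a ratio above 0, beside 1282 of all 2990 genes, with a median of 0.31. Of 22 members between 5 and 20 FPKM, 1 was at least 1.5-fold higher, where 1.87% of all genes were, so this count is near the background. There 14 members had a ratio above 0, beside 1989 of all 4857 genes, with a median of 0.12. Of the 6 members at 20 FPKM or more, 0 were at least 1.5-fold higher, where 2.38% of all genes were. Of these 6, 4 had a ratio above 0, beside 1266 of all 3150 genes, and the median was 0.10. All measured genes in these ranges had medians of -0.04, -0.04 and -0.05, so the median of the members was the higher one in each range.

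**Figure D2:**
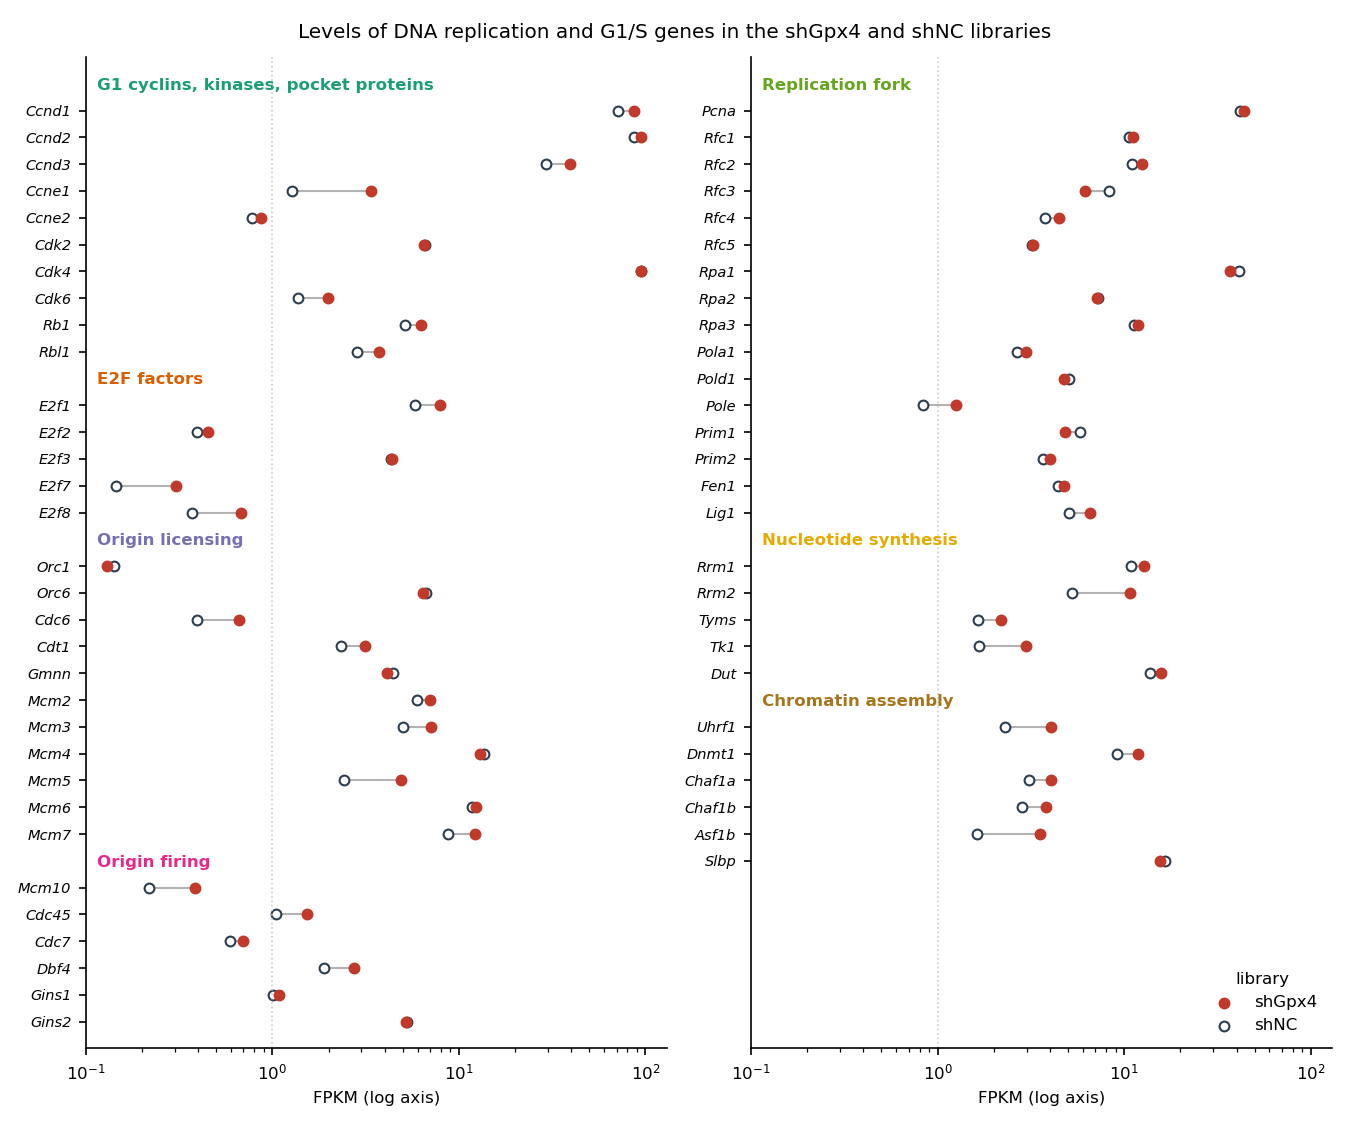
Level of each of the 59 genes in the shGpx4 library (filled red) and the shNC library (open), in FPKM on a log axis, ordered by role, with a dotted line at 1 FPKM. Most filled points lie to the right of the open ones, well apart for Ccne1, Asf1b, E2f7, Rrm2 and Mcm5, and the points of Cdk4, Cdk2 and Rpa2 coincide.

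Among the G1 regulators, all 3 D-type cyclins were higher in shGpx4, and Ccnd1 and Ccnd2 were with Cdk4 the most abundant members in both libraries. Ccnd3, cyclin D3, was at 39.5 FPKM in shGpx4 and 29.3 FPKM in shNC (ratio 0.42, interval 0.34 to 0.53). Ccnd1, cyclin D1, was at 87.3 FPKM in shGpx4 and 71.5 FPKM in shNC (0.29, interval 0.24 to 0.34). Ccnd2, cyclin D2, was at 94.2 FPKM in shGpx4 and 86.9 FPKM in shNC (0.12, interval 0.08 to 0.15). The order of the 3 by level, Ccnd2 above Ccnd1 above Ccnd3, was the same in both libraries, and their order by ratio was the reverse. Their partner kinases were uneven. Cdk4 was at 94.2 FPKM in shGpx4 and 94.4 FPKM in shNC (interval -0.08 to 0.07). Cdk6 was far lower in level and was at 1.99 FPKM in shGpx4 and 1.38 FPKM in shNC (0.33, interval 0.32 to 0.74).

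The E-type cyclins, which act after the D-type ones at the G1/S boundary, were both weakly expressed and differed from each other. Ccne1, cyclin E1, was at 3.38 FPKM in shGpx4 and 1.27 FPKM in shNC, the highest ratio of all members (0.95, interval 0.94 to 1.91). Of the 10997 measured genes, 127 had a higher one. Ccne2, cyclin E2, was under the filter, at 0.874 FPKM in shGpx4 and 0.782 FPKM in shNC, with an interval of -0.39 to 0.71 that holds 0. Their kinase Cdk2 was at 6.5 FPKM in shGpx4 and 6.58 FPKM in shNC. Cyclin E1 therefore differed by more than counting error, while the interval of its kinase, -0.23 to 0.20, holds 0.

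The pocket proteins hold E2F in check. Rbl1, which encodes p107, was at 3.74 FPKM in shGpx4 and 2.83 FPKM in shNC (0.31, interval 0.10 to 0.71). Rb1, the retinoblastoma gene, was at 6.26 FPKM in shGpx4 and 5.13 FPKM in shNC (0.24, interval -0.19 to 0.77). This interval holds 0, but it rests on at least 87 and 66 reads and may be too wide. Of the 9 measured genes of this role, 7 had a ratio above 0, and their median was 0.29.

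The E2F factors were low in level, and only E2f1 and E2f3 were measured. E2f1, an activator that opens the G1/S programme, was at 7.92 FPKM in shGpx4 and 5.82 FPKM in shNC (0.39, interval 0.25 to 0.64). E2f3, another activator, was at 4.37 FPKM in shGpx4 and 4.34 FPKM in shNC. The other 3 were under 1 FPKM in both libraries. E2f7 and E2f8 encode atypical E2Fs that repress the same targets later in the cycle and are themselves E2F targets. E2f7 was at 0.306 FPKM in shGpx4 and 0.145 FPKM in shNC, and its log2 ratio without the added 1 was 1.08 (interval 0.24 to 1.96, from at least 41 and 18 reads). E2f8 was at 0.675 FPKM in shGpx4 and 0.371 FPKM in shNC, with a log2 ratio without the added 1 of 0.86 (interval 0.19 to 1.56). The activator E2f2 was at 0.45 FPKM in shGpx4 and 0.395 FPKM in shNC, within counting error. E2f1 and both atypical factors were thus higher in shGpx4 by more than counting error, and E2f2 and E2f3 were not.

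Origin licensing loads the MCM2-7 ring, the core of the replicative helicase, onto DNA in G1. Its 6 subunits stand in equal numbers in the ring, but their transcripts differed in level and in ratio. Mcm5 was at 4.91 FPKM in shGpx4 and 2.42 FPKM in shNC (0.79, interval 0.75 to 1.30). Mcm7 was at 12.2 FPKM in shGpx4 and 8.79 FPKM in shNC (0.43, interval 0.31 to 0.63). Mcm3 was at 7.07 FPKM in shGpx4 and 5.04 FPKM in shNC (0.42, interval 0.27 to 0.71). These 3 subunits were higher in shGpx4 by the most. Mcm2 was at 7.01 FPKM in shGpx4 and 5.98 FPKM in shNC (0.20, interval 0.04 to 0.42). Mcm6 was at 12.3 FPKM in shGpx4 and 11.8 FPKM in shNC, with an interval of -0.07 to 0.18. Mcm4 was at 12.9 FPKM in shGpx4 and 13.6 FPKM in shNC, with an interval of -0.21 to 0.05. Mcm5, the least abundant subunit in both libraries, had the highest ratio and Mcm4, the most abundant, the lowest. The interval of Mcm5 did not overlap those of Mcm2, Mcm3, Mcm4, Mcm6 or Mcm7. Summed over the 6 genes, the level was 56.3 FPKM in shGpx4 and 47.6 FPKM in shNC.

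Among the loaders of the ring, Cdt1 was at 3.13 FPKM in shGpx4 and 2.34 FPKM in shNC (0.31, interval 0.04 to 0.80). Its inhibitor geminin, Gmnn, was at 4.13 FPKM in shGpx4 and 4.41 FPKM in shNC, with an interval of -0.52 to 0.33. Cdc6, the other loader, was under the filter, at 0.659 FPKM in shGpx4 and 0.392 FPKM in shNC, with a log2 ratio without the added 1 of 0.75 (interval 0.16 to 1.36). Both loaders were thus higher by more than counting error and the inhibitor was not. The origin recognition subunit Orc6 was at 6.41 FPKM in shGpx4 and 6.68 FPKM in shNC, within counting error. Orc1, the largest subunit, was at 0.13 FPKM in shGpx4 and 0.141 FPKM in shNC from at least 4 reads in each, too few to show a difference at this depth.

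Origin firing turns the loaded ring into an active helicase through CDC45 and the GINS complex. Dbf4, which activates the kinase CDC7, was at 2.74 FPKM in shGpx4 and 1.88 FPKM in shNC (0.38, interval 0.15 to 0.94). Cdc45 was at 1.54 FPKM in shGpx4 and 1.04 FPKM in shNC (0.32, interval 0.06 to 1.08). These were the pair of measured genes in this role with intervals above 0. The GINS subunit genes lay close to 0, Gins2 at 5.2 FPKM in shGpx4 and 5.27 FPKM in shNC, and Gins1 at 1.08 FPKM in shGpx4 and 1.01 FPKM in shNC. Mcm10, a scaffold of the activated helicase, was under the filter at 0.384 FPKM in shGpx4 and 0.219 FPKM in shNC, with a log2 ratio without the added 1 of 0.81 (interval 0.14 to 1.51). Cdc7 itself was at 0.693 FPKM in shGpx4 and 0.593 FPKM in shNC, with an interval of -0.42 to 0.88 that holds 0.

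The replication fork genes were the role closest to the bulk of genes. All 16 were measured, 0 passed 1.5-fold in either direction, and the median was 0.07. The interval held 0 for 12 of them, beside 6010 of all 10997 measured genes. The leading-strand polymerase gene Pole was at 1.26 FPKM in shGpx4 and 0.837 FPKM in shNC (0.30, interval 0.25 to 0.92). Lig1, the ligase that joins Okazaki fragments, was at 6.59 FPKM in shGpx4 and 5.06 FPKM in shNC (0.33, interval 0.18 to 0.58). Those were the fork genes with intervals above 0. The clamp gene Pcna, the most abundant fork gene, was at 44.1 FPKM in shGpx4 and 41.8 FPKM in shNC, with an interval of -0.09 to 0.25. Fen1, the flap nuclease of Okazaki fragments, was at 4.78 FPKM in shGpx4 and 4.4 FPKM in shNC, also within counting error.

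Both members with an interval below 0 were fork genes as well. Rfc3, a subunit of the clamp loader, was at 6.14 FPKM in shGpx4 and 8.34 FPKM in shNC, the lowest ratio of all members (-0.39, interval -0.75 to -0.13). Rpa1, the large subunit of the single-strand binding protein, was at 36.7 FPKM in shGpx4 and 41.0 FPKM in shNC (-0.16, interval -0.24 to -0.08). The other subunits of both complexes did not share this direction beyond counting error: the ratios of Rfc1, Rfc2, Rfc4 and Rfc5 lay between 0.00 and 0.20, those of Rpa2 and Rpa3 at 0.00 and 0.06, and the intervals of these 6 genes hold 0. Prim1, the catalytic primase subunit, was at 4.84 FPKM in shGpx4 and 5.79 FPKM in shNC (-0.22, interval -0.58 to 0.06), while its partner Prim2 was at 3.99 FPKM in shGpx4 and 3.65 FPKM in shNC. The polymerase genes Pola1 (0.12) and Pold1 (-0.08) lay within counting error on either side of 0.

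**Figure D3:**
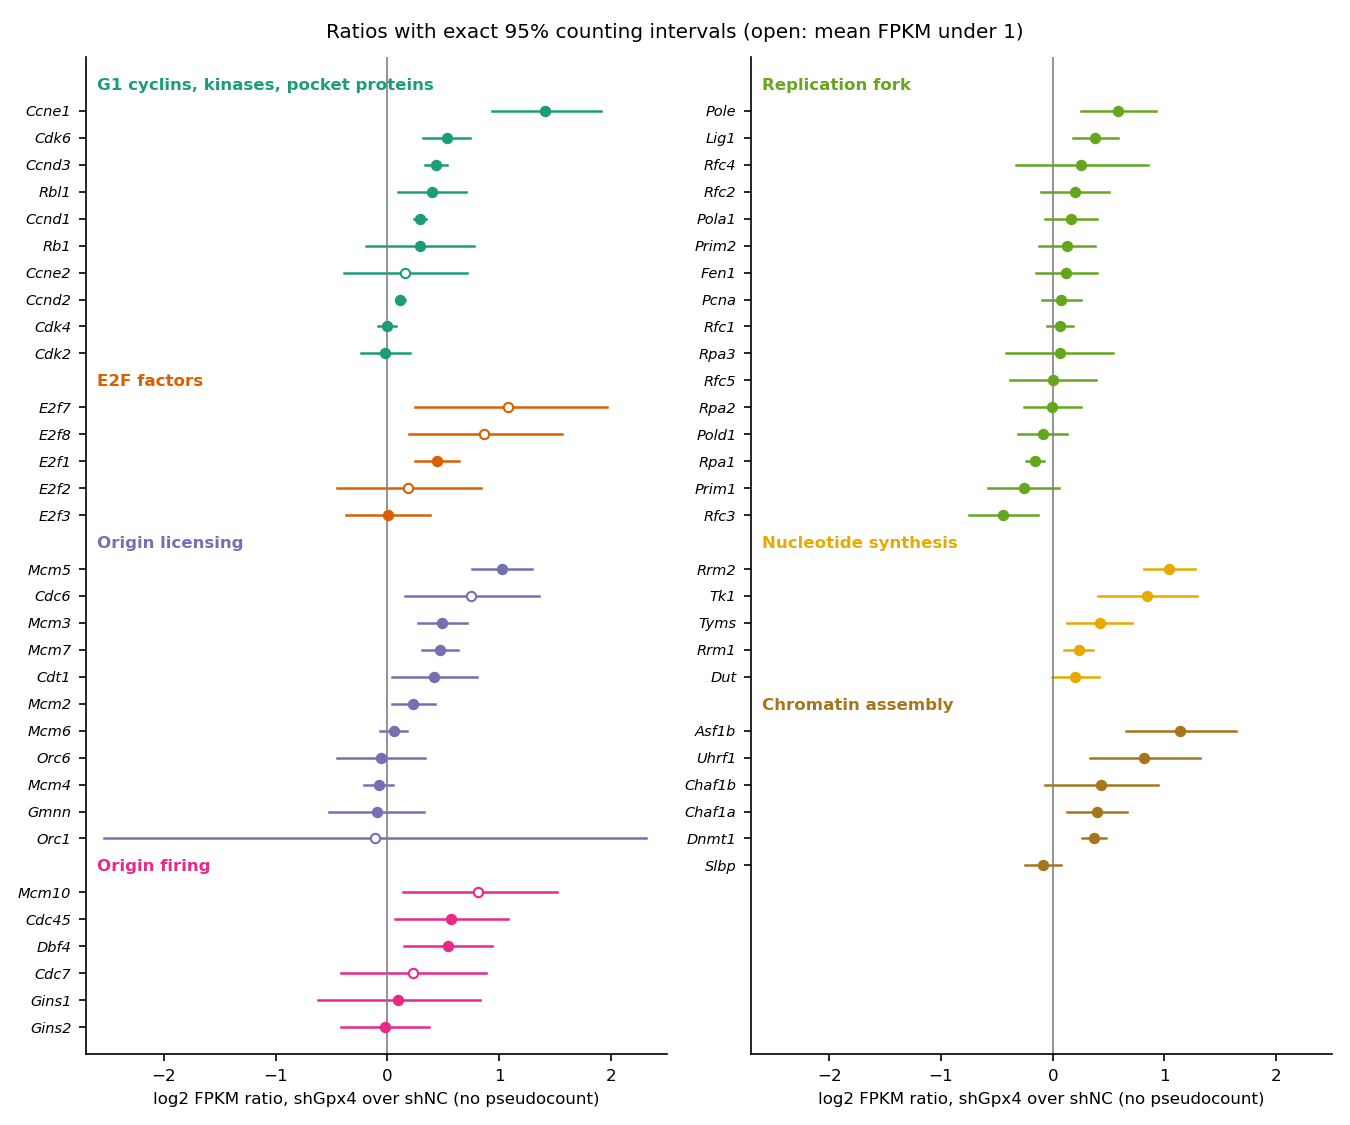
Log2 FPKM ratio of each of the 59 genes in shGpx4 over shNC without a pseudocount, with its exact 95% counting interval, sorted within each role; open points are genes with a mean under 1 FPKM. Ccne1, Rrm2, Asf1b and Mcm5 stand clear of 0, most fork genes have intervals that hold 0, and Rfc3 and Rpa1 lie below it.

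All 5 nucleotide synthesis genes had a ratio above 0. Ribonucleotide reductase makes deoxynucleotides, and its regulatory subunit gene Rrm2 was at 10.8 FPKM in shGpx4 and 5.25 FPKM in shNC (0.92, interval 0.81 to 1.28). Its catalytic subunit gene Rrm1 was at 12.8 FPKM in shGpx4 and 10.9 FPKM in shNC (0.21, interval 0.10 to 0.36). The interval of Rrm2 lay wholly above that of Rrm1, and the level of Rrm2 was 206% of that in shNC, against 118% for Rrm1. Tk1, the thymidine kinase of the salvage route, was at 2.98 FPKM in shGpx4 and 1.66 FPKM in shNC (0.58, interval 0.41 to 1.29). Tyms, thymidylate synthase, was at 2.19 FPKM in shGpx4 and 1.64 FPKM in shNC (0.27, interval 0.13 to 0.71). Dut, which removes dUTP, was at 15.8 FPKM in shGpx4 and 13.8 FPKM in shNC (0.19), and its interval of -0.01 to 0.41 holds 0.

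Chromatin assembly genes had a median of 0.33 over 6 genes, 5 of them above 0. Asf1b, a histone chaperone of dividing cells, was at 3.55 FPKM in shGpx4 and 1.62 FPKM in shNC (0.80, interval 0.65 to 1.64). Uhrf1, which guides maintenance DNA methylation to the new strand, was at 4.05 FPKM in shGpx4 and 2.29 FPKM in shNC (0.62, interval 0.34 to 1.32). The methyltransferase gene it works with, Dnmt1, was at 11.9 FPKM in shGpx4 and 9.19 FPKM in shNC (0.34, interval 0.26 to 0.48). All 3 were higher by more than counting error. The CAF-1 subunit genes were alike in ratio, Chaf1a at 0.31 (interval 0.13 to 0.66) and Chaf1b at 0.33 (interval -0.07 to 0.94). Slbp, which binds the stem-loop of histone mRNA and is needed for its use in S phase, was the exception, at 15.6 FPKM in shGpx4 and 16.6 FPKM in shNC (-0.08, interval -0.25 to 0.08).

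Counting the 8 members under the filter with the rest, 46 of 59 were higher in shGpx4 and 13 lower by any amount, and 28 had an interval above 0. These counts were not made over all genes without the filter, so they have no background beside them. The median without the filter was 0.19 over the members and -0.02 over 15153 genes. The filter thus left out E2f7, E2f8, Cdc6 and Mcm10, which had intervals above 0, and Ccne2, E2f2, Orc1 and Cdc7, which had not.

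The measured members with a window were also split by each word. The 11 with an E2F word had a median of 0.12 and the 30 without it had a median of 0.24. The 24 with a CCAAT box had a median of 0.10 and the 17 without it had a median of 0.31. The 7 with a CHR word had a median of 0.32 and the 34 without it had a median of 0.21. Above 0 were all 7 with a CHR word and 25 of the 34 without it. Over measured genes with a window, these counts were 435 of 1017 and 3219 of 7871. Over all measured genes with a window, 6.0% of those with a CHR word and 2.29% of those without were at least 1.5-fold higher. For the E2F word these shares were 1.05% and 2.79%, and for the CCAAT box 2.98% and 2.54%. The 61 genes with a CHR word that were at least 1.5-fold higher include 17 from the list of mitosis genes. These splits carry no test, and a match describes the letters of the window only.

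Genes of the same pathway outside the 59 were about as often lower as higher. Of 53 other replication genes, among them further subunits of the origin recognition complex, the polymerases and enzymes of nucleotide supply, 45 were measured. Of these, 21 had a ratio above 0 and 24 below, 1 was at least 1.5-fold higher, 0 were lower by that much, and the median was -0.04, as over all measured genes. The 1 past 1.5-fold was Ccna2, cyclin A2, which acts in S and G2, at 6.28 FPKM in shGpx4 and 2.91 FPKM in shNC (0.90). Next by absolute ratio were Skp2, which helps degrade p27 (0.39), the chromatin remodeller gene Hells (0.38) and Shmt1 of folate metabolism (0.38). With the members and these genes together, 96 were measured, 60 had a ratio above 0, and the median was 0.08. Whether the 59 and the other replication genes differ was not tested, and both lists were chosen with earlier results of these data known. Among the lower ones were Orc5 at 6.12 FPKM in shGpx4 and 8.23 FPKM in shNC, and Pole4 at 9.85 FPKM in shGpx4 and 12.7 FPKM in shNC.

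Among the repressors and partners of E2F and the CDK inhibitors, single genes lay on either side of 0. The DREAM complex joins E2F4 or E2F5, a DP partner, a pocket protein and the LIN proteins and represses cell cycle genes in resting cells. All 10 of its genes and E2F partners listed were measured, 4 had a ratio above 0 and 6 below, and the median was -0.09. Of all measured genes, 58.7% had a ratio below 0, so these counts are near the background. Among them Rbl2, which encodes p130, was at 23.3 FPKM in shGpx4 and 28.4 FPKM in shNC (-0.27, interval -0.36 to -0.21), the opposite direction to Rbl1. E2f5 (0.21), E2f6 (-0.14) and Tfdp1 (-0.14) were the next by absolute ratio. Of the 7 CDK inhibitor genes, 5 had a ratio below 0, which is also not far from that share, and the median was -0.12. The interval lay below 0 for 4 of the 7 and above 0 for 1, beside 27.3% and 18.1% of all measured genes. By at least 1.5-fold, 1 was lower, where 1.96% of all measured genes were. Cdkn1c, which encodes p57, was at 4.08 FPKM in shGpx4 and 7.5 FPKM in shNC (-0.74, interval -1.16 to -0.60). Cdkn2b (-0.37) and Cdkn1b (-0.25), which encode p15 and p27, were lower as well, and Cdkn2a, which encodes p16 and p19ARF, was higher, at 48.7 FPKM in shGpx4 and 40.9 FPKM in shNC (0.25).

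The mitosis genes, which act after replication, stood much further from 0 than the replication genes. Of 31 measured mitosis genes, 31 had a ratio above 0 and 25 were at least 1.5-fold higher, with a median of 0.89. Over all measured genes these shares were 41.3% and 2.99%. The lowest of them, Racgap1 at 0.40, lay above the upper quartile of the members. Their summed level was 185 FPKM in shGpx4 and 85.4 FPKM in shNC, while the summed level of the 59 members was 688 FPKM in shGpx4 and 617 FPKM in shNC. The highest were Ube2c (1.47), Ccnb2 (1.41), Mki67 (1.19) and Kif20a (1.13). In the range of 1 to 5 FPKM, which holds genes of both lists, the medians were 0.85 over 22 mitosis genes and 0.31 over 23 members. With 1 library per group the difference between the lists was not tested, and the lists were chosen with earlier results of these data known.

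**Figure D4:**
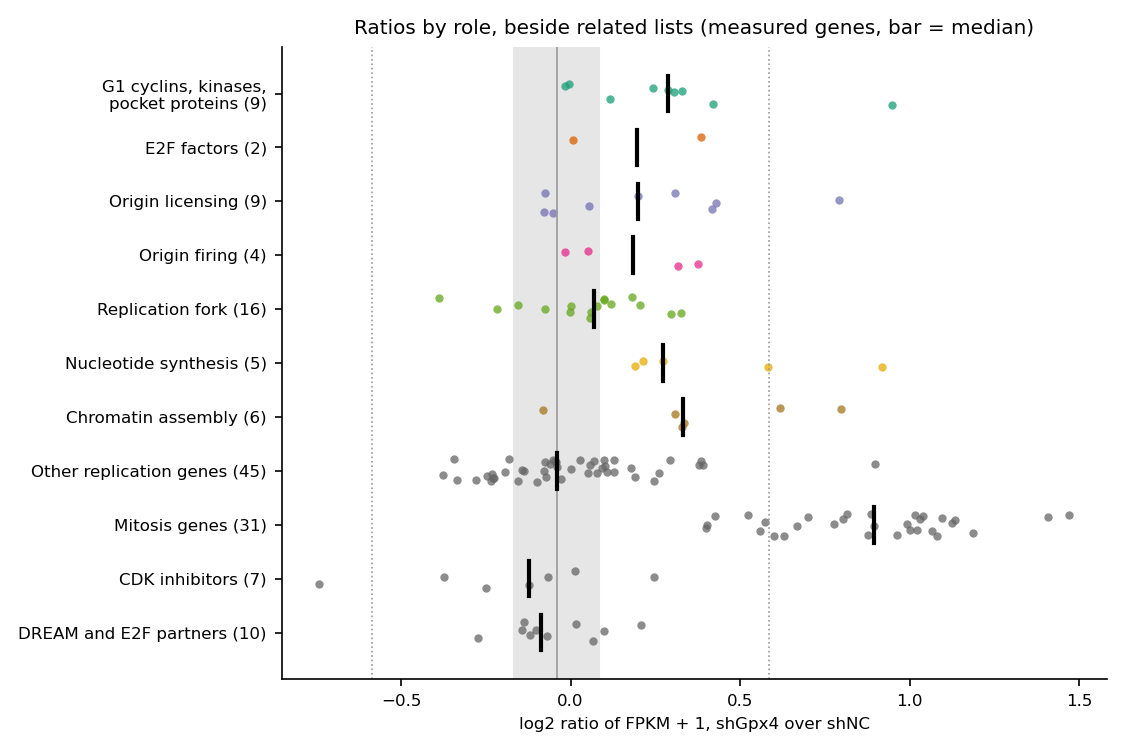
Ratio of every measured gene by role, and in 4 related lists, with black bars for the medians and the number of genes in brackets; the grey band spans the quartiles of all measured genes, the grey line is their median and the dotted lines mark 1.5-fold. The fork genes cluster near the band, the other roles spread to its right, and the mitosis genes lie further out, at a median of 0.89.

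Other features of the cultures moved between the libraries together with these genes. The 4 Y-linked genes were all lower in shGpx4, among them Ddx3y at 6.67 FPKM in shGpx4 and 15.9 FPKM in shNC, and their summed level was 14.6 FPKM in shGpx4 and 33.9 FPKM in shNC. Of 16 chondrocyte markers 8 were measured, 2 of them at least 1.5-fold higher and 0 lower, with a summed level of 1820 FPKM in shGpx4 and 1880 FPKM in shNC. Most of that sum was Comp, at 1420 FPKM in shGpx4 and 1670 FPKM in shNC. The 2 higher ones were Col2a1 and Lect1, the latter at 270 FPKM in shGpx4 and 124 FPKM in shNC. Col2a1 was at 58.4 FPKM in shGpx4 and 8.96 FPKM in shNC, Sox9 at 18.2 FPKM in shGpx4 and 21.8 FPKM in shNC, and Acan, Matn1 and Epyc were at or near 0 in both, so the labelled cell type was met by some defining markers and not by others. Of 9 fibroblast and synovial markers 8 were measured and 3 were at least 1.5-fold higher, with a summed level of 6730 FPKM in shGpx4 and 4310 FPKM in shNC. Dcn alone, at 5040 FPKM in shGpx4 and 2810 FPKM in shNC, made up most of that sum. Of 8 osteoblast markers 5 were measured and 4 were at least 1.5-fold lower, with a summed level of 40.6 FPKM in shGpx4 and 115 FPKM in shNC. Here most of the sum was Omd, at 29.6 FPKM in shGpx4 and 92.5 FPKM in shNC. Of the 9 matched macrophage and leukocyte markers 3 were measured, with a summed level of 23.2 FPKM in shGpx4 and 21.5 FPKM in shNC. At least 1.5-fold higher was 1, Cd14, at 17.1 FPKM in shGpx4 and 9.19 FPKM in shNC. At least 1.5-fold lower was 1, Lyz2, at 1.86 FPKM in shGpx4 and 7.67 FPKM in shNC. Ptprc and Cd3e were at 0 in both libraries. The 6 endothelial and 5 skeletal muscle markers were all under the filter, with summed levels of 0.0613 FPKM in shGpx4 and 0.125 FPKM in shNC for the endothelial ones, and of 0.119 FPKM in shGpx4 and 0.0988 FPKM in shNC for the muscle ones. The part of these differences in the replication gene ratios was not tested.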

How the data were processed

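The authors deposited 1 table per library with an FPKM value per RefSeq gene, a unit read from the deposited values and the tools named, since the headers give only the sample. The tools, per the submitters' processing notes, were Trimmomatic, HISAT2 and Cufflinks on build GRCm38, and neither their settings nor the strand rule are stated there, so overlapping genes may share reads. Per the labels' protocols, a stranded mRNA kit was used.

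Groups follow the treatment label. Library totals were the whole numbers that most short genes gave, and reads per gene the smallest whole numbers that give both FPKM values. They were whole within 6.4e-10 for all 15153 genes above 0 and summed to 90.0% (shGpx4) and 89.9% (shNC) of the totals. The pseudocount was 1, the minimum mean 1 FPKM, and the fold rules 1.5 and 2, with no test at 1 library per group. Members and lists were chosen with earlier results of these data known. Named were members past 1.5-fold, the 4 farthest from 0 in each role and each related list, the D-type cyclins, Mcm2 to Mcm7 and members under the filter. Other members, Orc5, Pole4, Racgap1, Comp, Lect1, Dcn, Omd, Cd14 and Lyz2 were named after their values were seen. The marker symbol Emr1 did not match. Promoters are RefSeq's (GRCm38.p6), matched by Entrez number. Alternatives were another pseudocount, 4 rescalings, 2 filters and ratios of recovered reads. The computation was tested on simulated data with Python 3.11.15, numpy 2.4.6, pandas 2.3.3 and scipy 1.17.1, and figures used matplotlib 3.10.9.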

Additional observations from a re-analysis of the deposited data

How the results depend on the processing

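A list median was taken as moved when it changed by more than 1.5 times and by more than 0.05, a rule set after seeing the data. Of 128 values of list medians and counts under 8 alternatives, 13 moved. The origin firing median took the other sign with a minimum mean of 5 FPKM (0.18 to -0.02). So did the median of the other replication genes without a filter (-0.04 to 0.05). A reversal was recorded only for single genes at least 1.5-fold apart, and 0 were. With the minimum mean set at 5 FPKM, which left 28 members, the median of the members was 0.10 and the number at least 1.5-fold higher was 1. Role medians were then 0.39 for E2F factors (1 gene), 0.18 for G1 regulators, 0.13 for origin licensing, 0.13 for chromatin assembly (2 genes) and -0.02 for origin firing (1 gene), so the order of the roles depends on this minimum. The origin firing median was 0.30 with a pseudocount of 0.1 and 0.32 from the recovered reads with 0.5 reads added, and the nucleotide synthesis median 0.42 from those reads. The number of members at least 2-fold higher, 0 with 1 FPKM added, was 3 and 4 under these alternatives, since the added 1 compresses weakly expressed genes by construction. Without a filter the median of the other replication genes was 0.05. Of 233 single-gene values, 2 moved beyond counting error, both of Ccnd2, which was 0.16 after rescaling by the 75th percentile or a trimmed mean of log ratios. Gins2, near 0, took the other sign (0.02) after centring and these rescalings, which moved the median of all measured genes by no more than 0.04. No paired analysis was possible because each group has 1 library. Depth limits Orc1 and the other members under 1 FPKM, and without a second library per group no spread between cultures is known.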
